A study of Sus scrofa with 16 samples.

Results

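The transcripts described here encode the mitochondrially encoded subunits of complex IV (COX1, COX2 and COX3), of the ATP synthase (ATP8 and ATP6) and of complex III (CYTB). They were chosen by their Ensembl transcript IDs, with a check that the length in the table matched the gene, and make up 6 of the 27370 transcripts in the table. All 6 lengths equalled those of the RefSeq genes, namely 1545 nt for COX1 (ENSSSCT00000019670), 688 nt for COX2 (ENSSSCT00000019673), 204 nt for ATP8 (ENSSSCT00000019675), 681 nt for ATP6 (ENSSSCT00000019676), 784 nt for COX3 (ENSSSCT00000019677) and 1140 nt for CYTB (ENSSSCT00000019689). The samples were ovarian tissue of unrelated Canadian Large White sows, with 1 RNA library per sow and 4 groups of 4 sows. The sows of LH and LL were high- and low-fecundity sows taken in the luteal phase, on day 14 after estrus, and those of FH and FL were taken in the follicular phase, on day 20, again with high and low fecundity. Fecundity was set from litter size records, and the study chose its sows with the aim of limiting effects of parity. In its records the high-fecundity sows had still borne more litters on average, and the part of parity was not tested. In such bulk tissue, fewer cells of a type and less RNA per cell cannot be told apart.

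Electrons enter the respiratory chain largely through complex I, pass from complex III, whose only mitochondrially encoded subunit is the cytochrome b protein of CYTB, to complex IV, and there reduce oxygen. COX1 forms the catalytic core of complex IV with COX2, which receives electrons from cytochrome c, while COX3 is a structural subunit. The proton gradient drives the ATP synthase, whose membrane part holds ATP6, the subunit of the proton channel, and ATP8, a small stabilising subunit. All these genes are read from long precursor RNAs of the circular mitochondrial genome and cut into single mRNAs, except that ATP8 and ATP6 stay on a shared mRNA. In the ovary, mitochondria are also where cholesterol is turned into the first steroid on the path to progesterone, the hormone made by the corpus luteum in the luteal phase.

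In LL ovaries, the levels of COX2, ATP6, COX3 and CYTB lay above those of every FL ovary and passed the study's threshold, by about 2.21-fold to 3.63-fold, and COX3 was the only member that also passed after adjustment over all transcripts. COX1 was also higher in every LL ovary than in every FL ovary but did not pass. The LH ovaries had the widest ratio of highest to lowest level for every member but ATP8, with LH1 among the LL ovaries and LH2 at or near the lowest level of the series. In the follicular phase, high- and low-fecundity ovaries did not differ at either threshold. The levels below are FPKM, a fragment count divided by a length and by the library's total, so that genes of different length can be set side by side. The length behind the low values was that of the transcript less a fragment-length term of 209 to 269 nt per library. ATP8, at 204 nt, has no such length, so its level cannot be set beside the others in the same way.

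COX3 was the most abundant member, with 11379 ± 3539 FPKM in LL, 6482 ± 5288 in LH, 4579 ± 3192 in FH and 3057 ± 279 in FL (SD, n = 4). In LL the values were 7355, 15889, 11813 and 10459 FPKM, from the first to the fourth sow, and in FL they were 2725, 3100, 3003 and 3401 FPKM. The lowest LL ovary thus held more COX3 than the highest FL ovary. The LH values were 13667, 1868, 7152 and 3240 FPKM, and the FH values were 9358, 3152, 3102 and 2704 FPKM. LH1 stood among the LL ovaries and LH2 below every other ovary, and FH1 stood far above the other 3 FH ovaries, which lay within the FL range or close to it.

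CYTB, an electron-carrying subunit of complex III, followed the same order of the low-fecundity groups. Its values were 3985, 7405, 4470 and 7060 FPKM in the LL sows and 1452, 1437, 1309 and 1959 FPKM in the FL sows, in the order of their numbers. The LH sows gave 6959, 516, 1832 and 2063 FPKM, and the FH sows 2862, 1950, 1596 and 1170 FPKM. The LL and FL ovaries did not overlap, while LH1 was 13.5 times higher than LH2, the largest ratio within a group for any member above 0 throughout.

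COX1, the catalytic subunit of complex IV, was at 3087, 7486, 3470 and 4930 FPKM in the LL ovaries and at 2741, 2349, 2688 and 2339 FPKM in the FL ovaries. The LH ovaries gave 5792, 1347, 1809 and 1266 FPKM and the FH ovaries 7546, 3087, 2487 and 2016 FPKM, each from the first to the fourth. As for COX3, LL lay above FL without overlap, LH1 was the highest LH ovary and FH1 the highest FH ovary. FH1 held the highest COX1 value of all 16 ovaries.

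COX2, the subunit that takes electrons from cytochrome c, was at 3537, 4841, 5726 and 4537 FPKM in the LL ovaries, numbered as before, and at 2351, 1545, 1706 and 2979 FPKM in the FL ovaries. The LH ovaries gave 4837, 1121, 3060 and 1351 FPKM, and the FH ovaries 5615, 1358, 2374 and 1546 FPKM. COX2 varied least within LL of the 6 members, with an SD of 19.4% of the mean.

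ATP6, the proton channel subunit, was at 4420, 8918, 5038 and 5186 FPKM in the LL ovaries and at 2445, 1756, 2081 and 2487 FPKM in the FL ovaries. The LH ovaries gave 6342, 1095, 3689 and 2373 FPKM, and the FH ovaries 5276, 1973, 3584 and 1954 FPKM. The lowest LL ovary again exceeded the highest FL ovary, and LL2 stood apart within LL.

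ATP8, the small stabilising subunit, was measured least well. In the luteal phase its values were 2134, 1244, 2442 and 633 FPKM in the LH ovaries and 2357, 5223, 2088 and 838 FPKM in the LL ovaries. In the follicular phase they were 1424, 0, 565 and 364 FPKM in the FH ovaries and 393, 520, 763 and 892 FPKM in the FL ovaries. It was the only member listed at 0 in any ovary, in FH2, and the only one for which LL and FL overlapped, through LL4. Its length of 204 nt is below the fragment-length term of every library (209 to 269 nt), so the number of fragments behind its values could not be estimated. Its reading frame also shares 43 nt with that of ATP6, and ATP6 shares 1 nt with COX3, so fragments across these ends could be given to either gene.

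**Figure D1:**
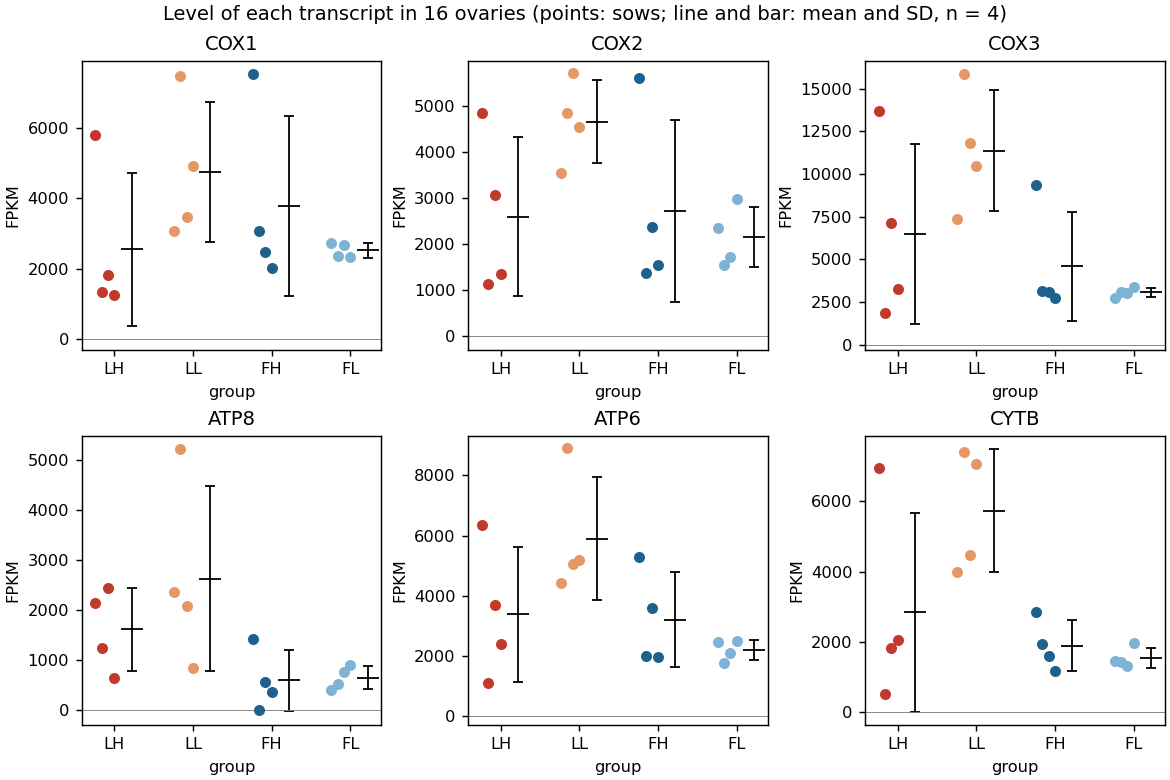
FPKM (vertical axis, linear) of each transcript by group (horizontal axis), with 1 point per sow and the group mean with its SD (n = 4) as a black line and bar. The COX3 points of LL (7355 to 15889 FPKM) all lie above those of FL (2725 to 3401 FPKM), while LH runs from 1868 to 13667 FPKM.

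Per length, the mean over 16 ovaries ran down from COX3 (6374 FPKM) through ATP6 (3664), COX1 (3403), COX2 (3030) and CYTB (3002) to ATP8 (1368). COX3 was the highest member in 14 ovaries and above ATP6 in 15 of 16. The neighbours in the middle of this order were not separated: ATP6 exceeded COX1 in 9 of 16 ovaries, COX1 exceeded COX2 in 11 and COX2 exceeded CYTB in 10. ATP8 was listed as the lowest member in 13 ovaries and below CYTB in 14, but the length behind its values is not known, so its place is uncertain. Among the other 5 members, CYTB was the lowest in 8 ovaries.

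The depth behind the table was estimated at 166000 to 305000 fragments per library, far below the number of reads the study mapped. Between 133 and 2865 fragments per ovary (median 404.5) stood behind each value of the 5 members longer than ATP8. The smallest count, COX2 in LH4, has a 95% Poisson interval of 111 to 158 fragments, a counting error of 8.67% that is small beside the spread between sows. Such intervals cover counting error only. ND6, the only 1 of the 13 mitochondrial coding genes on the light strand, was listed at 32444 to 359912 FPKM, which is 8.55 to 48.9 times the highest of the 6 members in each library. The library kit was strand-specific, but the strand setting of the counting is not given in the sources used here, so fragments of a gene and of RNA from the opposite strand cannot be told apart in any of these values.

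Within groups, FL had the smallest SD relative to the mean for every member except COX2, which varied least in LL (19.4%). The SD was 8.5% of the mean for COX1 in FL, 9.1% for COX3, 15.6% for ATP6, 18.7% for CYTB and 30.6% for COX2. In LH it ran from 51.3% for ATP8 to 99.5% for CYTB. Across the 16 ovaries the 5 longer members varied together, with Pearson's r of log2(FPKM + 1) between 0.774 and 0.942 over the 10 pairs (median 0.868). ATP8 correlated with them at 0.174 to 0.526, and ND6 at 0.375 to 0.714. The other 6 complex I transcripts, all read from the same strand as the members, correlated with the 5 at 0.571 to 0.966. These values describe 16 libraries that share depth and scaling within each library. Of 11014 transcripts outside the mitochondrial genome, the 3 whose levels were most like those of COX1 were ENSSSCT00000014528 (r = 0.834), RNF128, a ubiquitin ligase (r = 0.822), and PPP1R15B, a phosphatase subunit (r = 0.790). The first and the second had means of only 2.01 and 0.869 FPKM, near the value of 1 fragment.

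The comparison of FL with LL asks how the ovary differs between the phases in low-fecundity sows. The fold change is the difference of mean log2(FPKM + 1), follicular minus luteal, in a model of all 16 libraries. All 6 members were lower in FL, with a median log2 fold change of -1.60 against 0.76 over all 11027 transcripts tested. The study's threshold asks for an unadjusted p under 0.05 and a log2 fold change of at least 1 in size, and 4 of the 6 passed as lower in FL, where 1.97% of all transcripts did. After quantile normalization 2 of the 6 passed, since COX2 (-0.79) and ATP6 (-0.93) fell short of the fold size. The levels of 5 of the 6 did not overlap between the groups with FL below, against 1.69% of all transcripts.

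COX3 fell by 1.85 on the log2 scale (SE 0.453, 95% interval -2.79 to -0.90, adjusted p = 0.0451), the only 1 of the 6 with an adjusted p under 0.05, where 0.381% of all transcripts passed as lower. CYTB differed by -1.86 (SE 0.492, adjusted p = 0.0628), ATP6 by -1.38 (SE 0.403, adjusted p = 0.0874) and COX2 by -1.15 (SE 0.425, adjusted p = 0.162). COX1 differed by -0.82 (SE 0.422, unadjusted p = 0.0656) and ATP8 by -1.82 (SE 1.38, unadjusted p = 0.201), its wide error coming with the value of 0 in FH2, which enters the shared estimate of the spread. Without FH2 the ATP8 difference kept its size and had an unadjusted p of 0.00215. Relative to the median of all transcripts, the differences were -2.61 for COX3, -2.62 for CYTB, -2.14 for ATP6, -1.91 for COX2, -1.58 for COX1 and -2.58 for ATP8. These are larger than any rescaling gave: over the other settings tried COX3 ran from -2.34 to -1.25 and CYTB from -2.36 to -1.55. The adjusted call of COX3 was not firm: its adjusted p ran from 3.69e-04 to 0.142 over the other settings tried and from 0.0112 to 0.151 when 1 library was left out, the highest of these without LL2. It was above 0.05 without LL2, LL3, LL4, FH3 or any FL library, although the fold change stayed between -2.04 and -1.67. With only the 8 FL and LL libraries in the fit, whose spread is smaller, 5 members had an adjusted p under 0.05, and COX1 had 0.0577.

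**Figure D2:**
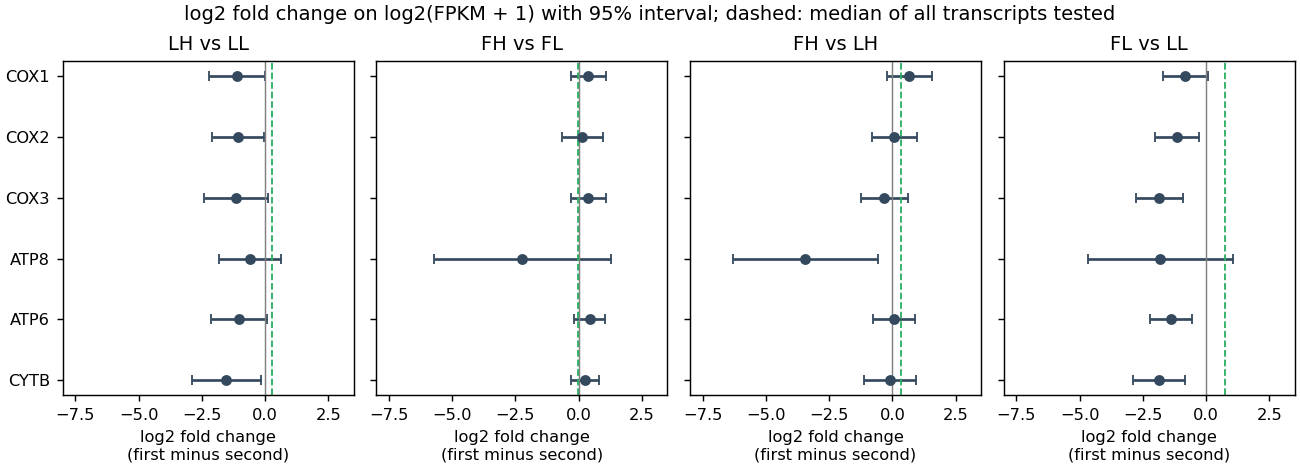
log2 fold change on the log2(FPKM + 1) scale (horizontal axis, first group minus second) of the 6 members in 4 comparisons, with 95% intervals from limma as bars and the median of all transcripts tested as a dashed line. In FL vs LL the points lie between -1.86 and -0.82 while the dashed line is at 0.76, and the ATP8 intervals are the widest wherever FH2 enters the fit.

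Measures of the library as a whole moved with the same groups. Estimated depth was 189000 to 205000 fragments in LL and 217000 to 305000 in FL, without overlap. It was 178000 to 298000 in LH and 166000 to 291000 in FH. The fragment-length term was 235 to 269 nt in LL and 217.5 to 230 nt in FL, also without overlap. The number of transcripts at or above 0.5 FPKM was 5103 ± 695 in LL, 6708 ± 1625 in LH, 8280 ± 975 in FH and 8471 ± 1188 in FL (SD, n = 4). The 5 longer members took 2.17% ± 0.632 of the fragments in LL, 1.19% ± 0.935 in LH, 1.17% ± 0.716 in FH and 0.844% ± 0.0676 in FL (SD, n = 4). LH1, the LH ovary with the highest share (2.53%), had 4622 detected transcripts, as few as LL ovaries, and LH2, with the lowest share of all (0.441%), had 8132. FH1 did not follow this pattern, with a share of 2.24% and 8518 detected transcripts. The part of depth, fragment length and detection in the fold changes was not tested. Rescaling to all transcripts outside the mitochondrial genome left 4 members past the threshold and added COX1, at -1.18 (unadjusted p = 0.0177).

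**Figure D3:**
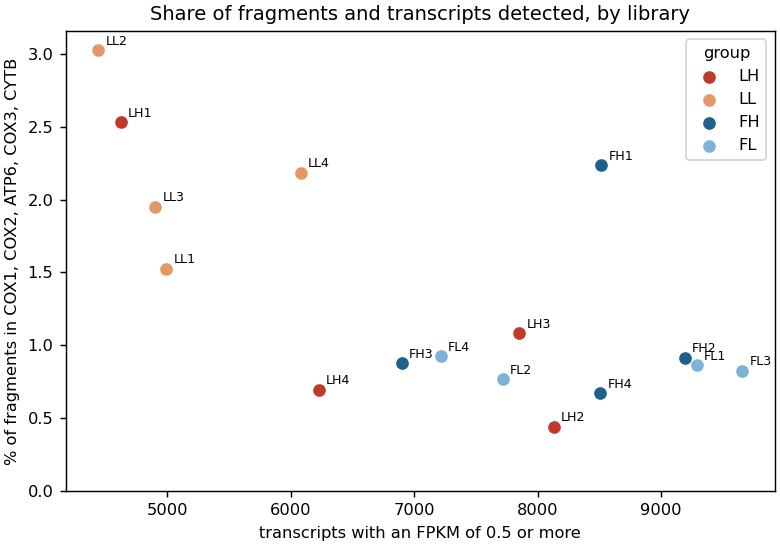
Percent of estimated fragments in COX1, COX2, ATP6, COX3 and CYTB (vertical axis) against transcripts with an FPKM of 0.5 or more (horizontal axis), 1 labelled point per library. The 4 LL libraries and LH1 lie at the upper left with 1.53% to 3.03% of fragments, and FH1 lies apart from the other follicular libraries, with 2.24% of fragments and 8518 detected transcripts.

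Few markers of ovarian cell types could be linked to transcripts through the study's lists, which include its differentially expressed transcripts. These were 1 of 5 for luteal and steroidogenic cells, 2 of 12 for granulosa cells, theca cells and oocytes and 3 of 11 for other cells. SCARB1, the lipoprotein receptor that brings cholesterol into luteal cells, was at 9.20 ± 10.8 FPKM in LL and at 1.44 ± 1.87 in LH, 0.49 ± 0.98 in FH and 1.48 ± 2.96 in FL (SD, n = 4), ranging from 0 to 23.9 within LL. GDF9, the oocyte growth factor, was above 0 in 2 LH, 0 LL, 3 FH and 1 FL ovaries, of 4 in each group. FOXL2, the granulosa cell regulator, was above 0 in 1 LH, 1 LL, 3 FH and 0 FL ovaries. Among the markers of other cells, the macrophage marker CD68 was at 18.3 ± 18.5 FPKM in LL, 21.1 ± 3.36 in LH, 41.0 ± 23.5 in FH and 35.0 ± 18.1 in FL (SD, n = 4). CD68 passed the study's threshold as higher in FL than in LL (log2 fold change 1.81, unadjusted p = 0.0458, adjusted p = 0.257), where 15.8% of all transcripts did. It also passed as higher in the follicular phase averaged over fecundity (1.29, unadjusted p = 0.0437, adjusted p = 0.226), where 15.7% did. COL1A2, a fibroblast collagen, was at 2.12 FPKM in LL, 4.75 in LH, 4.985 in FH and 2.27 in FL, and the endothelial PECAM1 was at 0 in at least 3 libraries of each group. The part of CD68 and of cell content in the mitochondrial differences was not tested.

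The 7 mitochondrially encoded complex I subunits give the nearest comparison. In FL vs LL all 7 were lower at the study's threshold, with a median of -1.81 beside -1.60 for the 6 members, and ND2 (-2.11), ND3 (-2.42) and ND4 (-1.90) had adjusted p of 0.0377 to 0.0407. The levels of all 7 were below LL in every FL ovary. Of the mitochondrial coding genes, COX1 (-0.82), COX2 (-1.15), ND6 (-1.18) and ATP6 (-1.38) had the smallest differences. COX3 and CYTB lay among the complex I genes other than ND6, which ran from -1.54 for ND1 to -2.42 for ND3. Whether the members and the complex I genes differ was not tested.

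**Figure D4:**
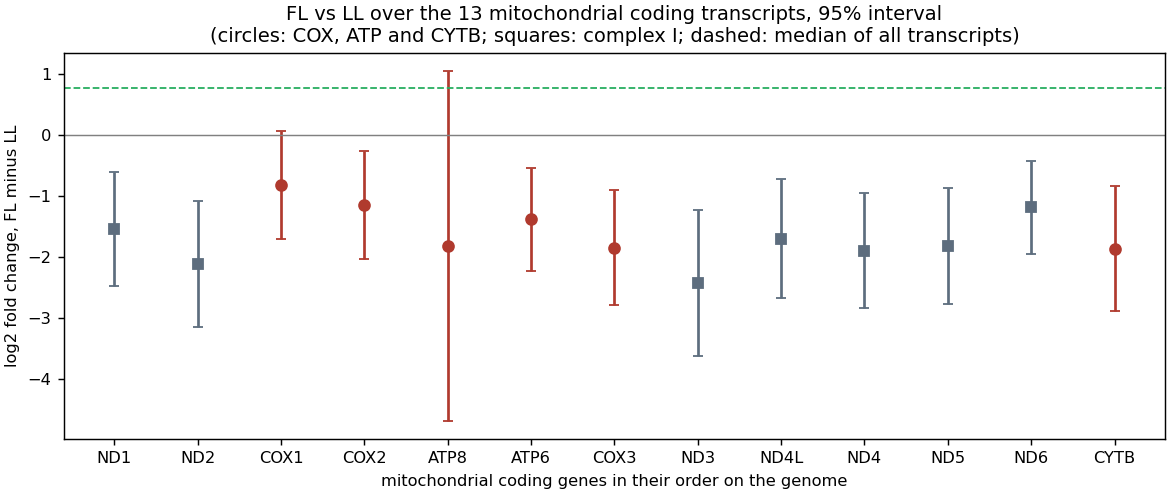
log2 fold change, FL minus LL (vertical axis), of the 13 mitochondrial coding transcripts in genome order (horizontal axis) with 95% intervals, the 6 members as circles, complex I as squares and the median of all transcripts as a dashed line. All 13 points lie below 0, from -2.42 for ND3 to -0.82 for COX1.

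Ratios within a library do not depend on the library's total and were set side by side without a test. They still depend on its fragment-length term, which was 235 to 269 nt in LL and 217.5 to 230 nt in FL. That term weighs most on short genes such as ND3 (346 nt) and ND4L (297 nt), and its part in the ratios was not tested. COX3 was 2.38, 2.12, 3.40 and 2.12 times COX1 in LL1 to LL4 and 0.994, 1.32, 1.12 and 1.45 times COX1 in FL1 to FL4, so that the groups did not overlap. CYTB was 1.29, 0.989, 1.29 and 1.43 times COX1 in LL1 to LL4 and 0.530, 0.611, 0.487 and 0.837 times in FL1 to FL4, again without overlap. The mean log2 ratio to COX1 differed, FL minus LL, by -1.02 for COX3 and by -1.04 for CYTB, where 0.444% of all transcripts were lower in FL without overlap. This was not particular to the members. Of complex I, ND2 (-1.29), ND3 (-1.60), ND4 (-1.07) and ND5 (-0.99) were also lower in FL without overlap. ND1 (-0.71), ND4L (-0.88) and ND6 (-0.36) overlapped. In high-fecundity sows COX3 was 2.36, 1.39, 3.95 and 2.56 times COX1 in LH1 to LH4 and 1.24, 1.02, 1.25 and 1.34 times in FH1 to FH4. Here too every luteal ratio exceeded every follicular ratio, with 1.47% of all transcripts lower in FH without overlap. Of complex I, ND1 did the same (-0.91, FH minus LH), and the others overlapped. ATP8 had a lower ratio to COX1 in every FH ovary than in every LH ovary as well, with FH2 at 0. The CYTB ratio overlapped between LH and FH through LH2 (0.383). The ratios of COX2 and ATP6 overlapped between the phases in both kinds of sow.

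**Figure D5:**
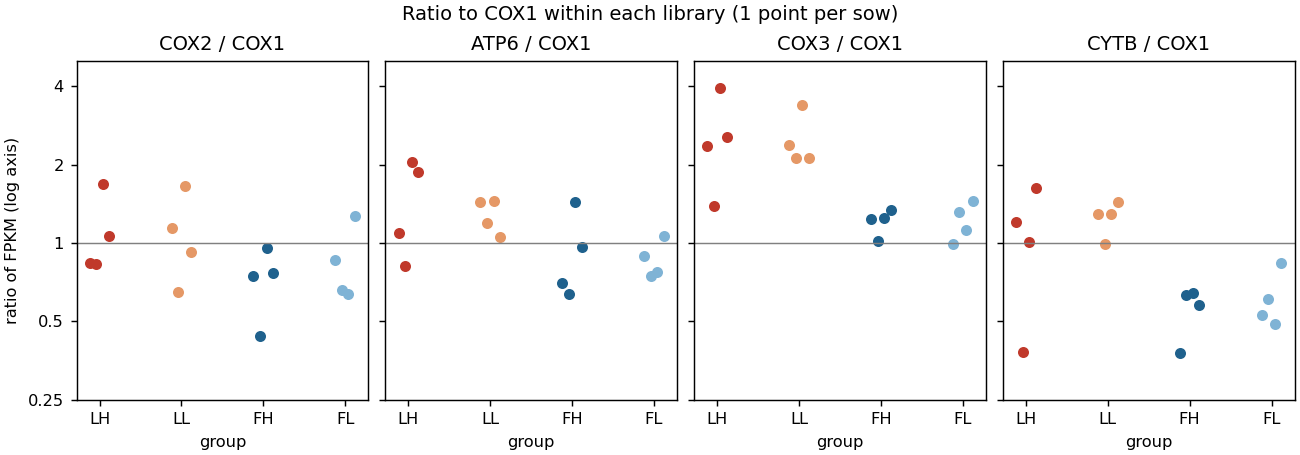
Ratio of the FPKM of COX2, ATP6, COX3 and CYTB to that of COX1 in the same library (vertical axis, log scale) by group, 1 point per sow, with a line at equal levels. The COX3 ratios lie between 1.39 and 3.95 in the luteal groups and between 0.994 and 1.45 in the follicular groups, where LH2 (1.39) lies below FL4 (1.45), the only luteal ratio below any follicular one.

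The comparison of LH with LL asks what goes with fecundity in the luteal phase and was fitted on these 8 libraries alone. All 6 members were lower in LH, with a median log2 fold change of -1.10 against 0.26 over all 5015 transcripts tested, and all 6 overlapped between the groups, through LH1 alone except for ATP8, where 1.40% of all transcripts were lower in LH without overlap. COX1 (-1.12, SE 0.509, unadjusted p = 0.0476), COX2 (-1.08, SE 0.474, unadjusted p = 0.0409) and CYTB (-1.52, SE 0.633, unadjusted p = 0.0320) passed the study's threshold as lower in LH, where 2.31% of all transcripts did. ATP6 (-1.02, unadjusted p = 0.0685), COX3 (-1.15, unadjusted p = 0.0690) and ATP8 (-0.60, unadjusted p = 0.308) did not. The adjusted p lay between 0.562 and 0.778, so none of the 6 passed after adjustment, as 0.0199% of all transcripts did. Relative to the median of all transcripts the differences ran from -1.78 for CYTB to -0.86 for ATP8. The count of 3 rested on single ovaries: it was 5 without LH1, 1 without LH3 or LL3, and 0 without LH2, LH4, LL2 or LL4. Of the 7 complex I transcripts, ND2 alone passed the study's threshold (-1.40).

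The comparison of FH with FL asks the same in the follicular phase. None of the 6 members passed either threshold, where 4.41% of all 8296 transcripts tested passed the study's threshold, 4.77% had an unadjusted p under 0.05 and 0% passed after adjustment by limma. Every member overlapped between the groups, while 1.22% of all transcripts were higher and 1.34% lower in FH without overlap. ATP6 differed by 0.43 (95% interval -0.20 to 1.06), COX1 by 0.38 (-0.31 to 1.08), COX3 by 0.38 (-0.31 to 1.07), CYTB by 0.24 (-0.32 to 0.80) and COX2 by 0.15 (-0.67 to 0.97). The sign of COX1, COX2 and COX3 turned without FH1. ATP8 differed by -2.22 (-5.72 to 1.28), and by 0.12 without FH2, where it was listed at 0. These intervals leave room for differences beyond 1 on the log2 scale in COX1, COX3, ATP6 and ATP8. Relative to ND6 in the same library, COX2, ATP6, COX3 and CYTB were higher in every FH ovary than in every FL ovary, as were ND2, ND4 and ND5. The other mitochondrial transcripts overlapped in this ratio. No test of it was made, and the share over all transcripts was not counted. ND6 itself was lower in FH (-0.60, unadjusted p = 0.0205 and adjusted p = 0.914 by limma).

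The comparison of FH with LH asks how the phases differ in high-fecundity sows. ATP8 passed the study's threshold as lower in FH (-3.44, SE 1.38, unadjusted p = 0.0210, adjusted p = 0.557), where 1.10% of all transcripts did. Without FH2, in which it was listed at 0, the difference was -1.10 with an unadjusted p of 0.0622. The other members lay between -0.31 for COX3 and 0.68 for COX1, with unadjusted p of 0.124 to 0.873, and all 6 overlapped between the groups, where 0.363% of all transcripts were lower in FH without overlap. After adjustment 0.0181% of all transcripts passed and none of the 6.

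Averaged over fecundity, follicular minus luteal, COX3 (-1.08, SE 0.320, unadjusted p = 0.00298, adjusted p = 0.0965) and ATP8 (-2.63, unadjusted p = 0.0136) passed the study's threshold, where 1.47% of all transcripts passed as lower. Without FH2, where it was listed at 0, the ATP8 difference was -1.46. CYTB fell short of the fold size (-0.98, unadjusted p = 0.0107), as did ATP6 (-0.66, unadjusted p = 0.0316). None of the 6 had an adjusted p under 0.05, and 0.172% of all transcripts passed as lower after adjustment. COX2 (-0.53) and COX1 (-0.07) had unadjusted p of 0.0911 and 0.811. The median over the 6 members was -0.82 against 0.56 over all transcripts. Of the complex I transcripts 5 of 7 passed, and ND3 had an adjusted p of 0.0406.

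The test of the difference itself, (FH minus FL) minus (LH minus LL), asks whether fecundity goes with these transcripts differently in the phases. It was above 1 and passed the study's threshold for COX1 (1.50, unadjusted p = 0.0207), ATP6 (1.45, unadjusted p = 0.0195), COX3 (1.53, unadjusted p = 0.0265) and CYTB (1.77, unadjusted p = 0.0195), where 1.88% of all transcripts passed in this direction. COX2 gave 1.23 (unadjusted p = 0.0547) and ATP8 -1.63 (unadjusted p = 0.413). The ATP8 value turned to 0.72 without FH2, where it was listed at 0. The adjusted p of the 6 lay between 0.582 and 0.897, so none passed after adjustment, as 0.00907% of all transcripts did. The count of 4 was 2 without LH2, LH4 or LL2 and 1 without FH1. Since this test is built from the same libraries as the other comparisons, it is not separate evidence for them, and FL vs LL shares the LL libraries with LH vs LL.

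The nuclear side of the same machinery was barely covered, because the table names no genes. Symbols could be linked only through the study's lists of differentially expressed transcripts and of miRNA targets, the first drawn from these same data. This gave 7 of 78 nuclear subunits of the respiratory chain and ATP synthase, 3 of 39 assembly factors and 7 of 20 genes of mitochondrial gene expression. Of these, 9 transcripts were tested in the 16-library fit, and none had an adjusted p under 0.05 in any comparison. In FL vs LL 8 of the 9 were above 0, with a median of 0.70, close to the 0.76 of all transcripts. ATP5F1, a stalk subunit of the ATP synthase, passed the study's threshold as lower in FL (-1.98, adjusted p = 0.186), where 1.97% of all transcripts did. It was at 8.44 ± 7.42 FPKM in LL and above 0 in only 1 FL ovary. MRPL32, a protein of the mitochondrial ribosome, passed as higher in FL (1.83, adjusted p = 0.257), where 15.8% of all transcripts did. MRPL36, another ribosomal protein, passed as higher in FH than in LH (3.19, adjusted p = 0.184), where 5.99% of all transcripts did. It also passed as higher in the follicular phase averaged over fecundity (2.14, adjusted p = 0.0578), where 15.7% did. MRPL36 was at 0 in every luteal ovary, so it entered the test through follicular ovaries alone and its folds depend on the added 1. NDUFA1, a complex I subunit, the complex I assembly factors NDUFAF6 and FOXRED1, the mitochondrial DNA polymerase POLG and the ribosomal proteins MRPL9 and MRPS34 passed in no comparison.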

How the data were processed

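Ovarian RNA of 16 sows, 4 per group, was sequenced, and the sample titles gave the group and number of each library. The study's methods state rRNA depletion, a strand-specific kit, paired reads, mapping to Sscrofa10.2 (Ensembl release 86) and quantification of transcripts by RSEM. The submitters' processing notes list HISAT2 2.0.1, StringTie 1.0.4 and DESeq2 1.6.3. The authors deposited FPKM values rounded to 2 decimals and the length of each transcript. FPKM is relative to the fragments counted in a library, so a few abundant transcripts lower all others. No fold changes of the authors were used.

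The model was limma 3.58.1 (R 4.3.3) with a variance trend, applied to log2(FPKM + 1), and p-values were two-sided. Transcripts entered when 4 or more libraries in the model reached 0.5 FPKM, and the Benjamini-Hochberg adjustment covered all of them. LH vs LL and FH vs FL used their own 8 libraries, as in the study, and the other comparisons all 16. Fold changes on this scale understate those of low transcripts, and a fold against a value of 0 depends on the added 1. The fit was tested on simulated data. The depth was read from the steps of low FPKM values of transcripts longer than 1500 nt. Of the values of up to 10 fragments, 92.1% to 94.4% lay within 0.05 of a whole number. On 2 simulated libraries the largest error was 0.00698%. These were whole counts turned into FPKM by the same formula, so this checks the calculation and not the depth of the real libraries. Python 3.11.15, numpy 2.4.6, pandas 2.3.3, scipy 1.17.1 and matplotlib 3.10.9 were used for the other steps.

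The genes named were the 6 members, the 7 complex I transcripts, every linked and tested gene of the lists, and the 3 transcripts most like COX1. The members and lists were chosen with earlier results of these data known, and no test of a list was made. Gene symbols were linked, for names only, through the study's lists of differentially expressed transcripts and of miRNA targets. The first list was drawn from these same libraries, so the linked genes are not a neutral sample of the table. Lengths, overlaps and gene order came from RefSeq genes of another assembly, Sscrofa11.1, and no coordinates or sequences are given. Alternatives were a pseudocount of 0.1, no filter or a filter at 1 FPKM, quantile or median-ratio scaling, scaling without ND6 or the 13 mitochondrial transcripts, no variance trend, library weights, a block for the sow's number, voom on recovered fragments, another set of libraries in the fit, and leaving out each library.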

Additional observations from a re-analysis of the deposited data

Results flagged for a closer look

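In 3 of the 24 combinations of member and group examined, 1 ovary stood apart from the other 3 by Dixon's test, which chance does in about 1 of 20. These were COX1 in LH1 at 5792 FPKM, ATP6 in LL2 at 8918 FPKM and COX3 in FH1 at 9358 FPKM, each the highest of its group.

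The effect of fecundity differed between the phases at an unadjusted p under 0.05 for COX1 (1.50), ATP6 (1.45), COX3 (1.53) and CYTB (1.77), as (FH minus FL) minus (LH minus LL) on the log2(FPKM + 1) scale. The adjusted p by limma lay between 0.582 and 0.601 for these 4, so none passed the correction. COX1, ATP6, COX3 and CYTB kept a positive sign under every alternative and whichever library was left out, with 1.00 to 2.38 as the range over the libraries left out.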

How the results depend on the processing

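The counts below are members past the study's threshold. FH vs FL stayed at 0 under every alternative. LH vs LL (3) gave 5 with no filter, with limma voom on recovered fragments and with all 16 libraries in 1 fit. It gave 2 with a pseudocount of 0.1 and with quantile normalization, and 0 with no variance trend and with the replicate block. FH vs LH (1) gave 0 with limma voom, where ATP8 could not be tested for want of an effective length. FL vs LL (4) gave 2 after quantile normalization and 3 with no variance trend. It gave 5 with median-ratio scaling, with scaling without the 13 mitochondrial transcripts and with only the groups compared in the fit. F vs L (2) gave 1 after quantile normalization, 4 with median-ratio scaling, and 3 with library weights or scaling without ND6 or the 13 mitochondrial transcripts. It gave 0 with limma voom, where ATP8 could not be tested. With voom COX3 (-0.98, adjusted p = 0.0128) and CYTB (-0.89, adjusted p = 0.0332) fell short of the fold size but had adjusted p under 0.05. The interaction (4) gave 0 with no variance trend. It gave 5 with a pseudocount of 0.1, median-ratio scaling, scaling without ND6 or the 13 mitochondrial transcripts, library weights, the replicate block and limma voom. Leaving out each library gave 0 to 5 in LH vs LL, 0 in FH vs FL, 0 to 2 in FH vs LH (2 without LH1, 0 without FH2), 4 to 5 in FL vs LL, 1 to 3 in F vs L (1 without LH1, LH3, LL2 or FH4) and 1 to 5 in the interaction. The summed level of the 6 members in FL moved from 12106 FPKM to 10109.8 with median-ratio scaling and 13251 with quantile normalization, and that in LL from 35029 to 41992 and 27180.2. The cause was not tested.

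The sign of some differences, none past a threshold, turned. Most were near 0, but ATP8 turned from -2.22 to 0.12 in FH vs FL and from -1.63 to 0.72 in the interaction without FH2, where it was listed at 0. In FH vs LH, quantile normalization gave 0.0622 for COX3 and 0.0262 for CYTB, median-ratio scaling -0.19 for COX2 and -0.21 for ATP6, scaling without the 13 mitochondrial transcripts -0.0402 for COX2 and -0.0547 for ATP6, library weights -0.0187 for ATP6 and limma voom 0.0499 for CYTB. In F vs L, COX1 gave 0.32 after quantile normalization and 0.00598 with limma voom. Leaving out libraries gave -0.0174 to 0.62 for COX1 in FH vs FL, -0.28 to 0.40 for COX2 in FH vs FL, -0.0329 to 0.56 for COX3 in FH vs FL, -3.37 to 0.12 for ATP8 in FH vs FL, -0.78 to 0.18 for COX3 in FH vs LH, -0.73 to 0.52 for CYTB in FH vs LH, -0.35 to 0.46 for COX2 in FH vs LH, -0.38 to 0.46 for ATP6 in FH vs LH, -0.27 to 0.18 for COX1 in F vs L and -2.77 to 0.72 for ATP8 in the interaction. Over the 6 members and 6 comparisons, 783 of 894 alternative values kept direction and side of the threshold, 47 no longer passed, 36 newly passed and 28 changed sign.

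The replicate number was also fitted as a block. Same-numbered ovaries of different groups did not deviate together (correlations of -0.0673 to 0.0562), and the sows were unrelated, so the number pairs nothing. With the block the counts were 0 in LH vs LL, 0 in FH vs FL, 1 in FH vs LH, 4 in FL vs LL, 2 in F vs L and 5 in the interaction, and the adjusted p of COX3 in FL vs LL was 0.0530. That p was also above 0.05 with no filter (0.108), quantile normalization (0.128) and no variance trend (0.142). At the study's threshold limma voom called 2091 transcripts in FL vs LL, where the test on FPKM called 1964. Depth limits ATP8, whose fragments could not be estimated, and the low nuclear transcripts, more than the other 5 members.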
